A study of Mus musculus with 8 samples.

Results

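The state examined is that of mouse cells with the K36M genotype kept under Repsox, on day 8 of reprogramming to pluripotency, set against all other cells of the experiment. Mouse embryonic fibroblasts carrying the OKSM factors (Pou5f1, Klf4, Sox2 and Myc) were reprogrammed in a medium named AGi in the labels, and RNA depleted of ribosomal RNA was sequenced. There were 4 groups of 2 libraries on day 8: WT and K36M cells, each with either 250 nM Repsox, which blocks the type I TGF-beta receptor, or 2.5 ng/ml of recombinant TGF-beta1. The H3 gene that carried the K36M change, the way it was expressed and whether a line was 1 clone are not given in the sources used here, and no group without both agents was analysed here. A gene belonged to the state when its CPM (its count over the total of that library, scaled to 1000000 counts) in both K36M Repsox libraries was at least 2-fold above, or at least 2-fold below, that of every one of the 6 other libraries. This rule took 1293 of the 26930 genes in the table, 722 on the high side and 571 on the low side, which are called state-high and state-low genes.

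K36M replaces the histone H3 lysine that the Nsd and Setd2 enzymes methylate with a methionine, which blocks those enzymes and lowers methylation of that lysine genome-wide. TGF-beta signals through its receptor kinases to Smad factors, holds fibroblasts in a mesenchymal state and is a known barrier to reprogramming, so that its inhibitors are used to help fibroblasts to become epithelial, an early step on the way to pluripotency. Type I interferon acts through another route, in which the Jak kinases activate Stat factors, these join Irf9, and the complex binds the interferon-stimulated response element (ISRE) in front of antiviral genes.

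Of the 722 state-high genes, 512 were among the 15789 genes with enough counts to be tested, 3.24% of those tested. The other 210 were too low, 132 of the 512 passed only because of their level in the K36M Repsox libraries, and 128 of the 722 had no count in any of the 6 other libraries. Of the 571 state-low genes, 531 were tested, 3.36% of those tested, and 59 of the 571 had no count in either K36M Repsox library. These are descriptions, with no test, because the values that would be tested chose the genes. Among tested state-high genes the nearest libraries (the lower of the 2 against the highest of the 6) were apart by a median of 2.84-fold, and among state-low genes by a median of 2.79-fold. Where the low side had a count, the gap was at most 32.2-fold for state-high and 84.8-fold for state-low genes. A gap of at least 8-fold was seen for 33 tested state-high and 48 tested state-low genes, and one of at least 4-fold for 129 and 139, and these counts hold 2 tested state-high and 30 tested state-low genes with no count on the low side.

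At the edge of the rule, Trpt1 and Crip1 were just inside on the high side, each at 2.00-fold, and Cdc42ep2 (1.995-fold) and Anxa4 (1.994-fold) were just outside. On the low side Nfia (2.001-fold) and Mtap2 (2.002-fold) were just inside, and Zfp503 (1.99996-fold) and St6galnac4 (1.999-fold) just outside. The 2-fold limit is one cut through a continuous range: 1.5-fold gave 1246 state-high and 1037 state-low genes, and 3-fold gave 391 and 252. Asking for only 1 K36M Repsox library also widened the sets, to 1324 high and 873 low without the first library and 1329 and 909 without the second.

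Applied to each of the other groups in turn, the same rule took 493 high and 130 low genes for WT under Repsox, 498 and 159 for K36M under TGF-beta1, and 1033 and 2241 for WT under TGF-beta1. The group next to the K36M Repsox libraries was WT under Repsox for 285 of the 512 state-high genes (55.7%) and K36M under TGF-beta1 for 218 (42.6%). On the low side the order of these groups was the other way, with K36M under TGF-beta1 next for 339 of 531 (63.8%) and WT under Repsox for 168 (31.6%). WT under TGF-beta1 was the farthest group for 431 state-high (84.2%) and 418 state-low genes (78.7%).

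**Figure D1:**
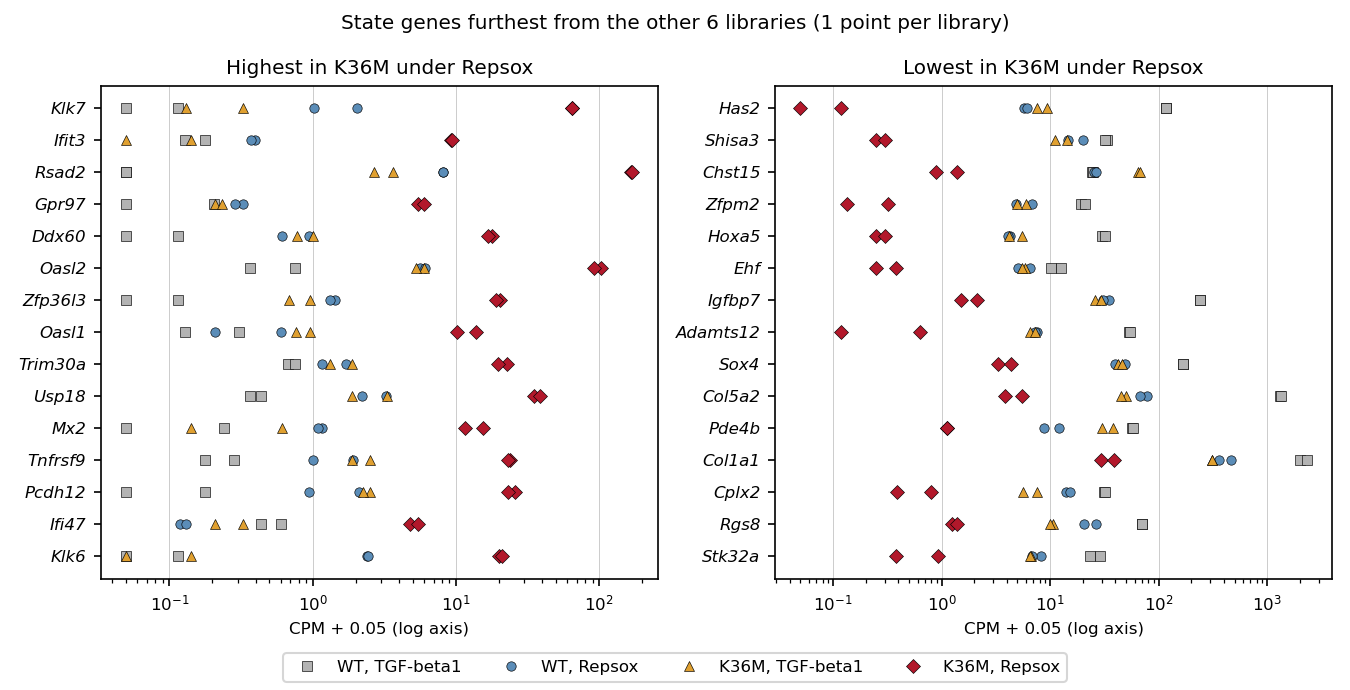
CPM in each of the 8 libraries (log axis, 0.05 CPM added so that 0 can be drawn) for the 15 state-high and 15 state-low genes with the widest gap, colours and shapes marking the 4 groups. The K36M Repsox diamonds stand alone to the right in the left panel and alone to the left in the right panel, by the rule that chose the genes, while the order of the other 3 groups changes from gene to gene.

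The marker with the widest gap was Klk7 (chromosome 7, 51066814 to 51071729 on mm9), a serine protease known for shedding of the outer skin layer. It stood at 64.2 and 64.9 CPM in K36M under Repsox, 0.969 and 1.99 in WT under Repsox, 0.0799 and 0.275 in K36M under TGF-beta1 and 0 and 0.0641 in WT under TGF-beta1. The lower K36M Repsox library was thus 32.2-fold above the highest other library, which was a WT library under Repsox. Rsad2 (chromosome 12, 27127618 to 27141317), which encodes the antiviral protein viperin, stood at 166 and 170.3 CPM in K36M under Repsox, 8.1 and 8.06 in WT under Repsox, 2.64 and 3.57 in K36M under TGF-beta1 and 0 and 0 in WT under TGF-beta1, a gap of 20.5-fold. Both TGF-beta1 groups and WT under Repsox lay far below, with no count at all in WT under TGF-beta1. Hand1 (chromosome 11, 57642207 to 57646320), a transcription factor of trophoblast giant cells and of the heart, stood at 84.5 and 77 CPM in K36M under Repsox, 15.3 and 14.8 in WT under Repsox, 4.56 and 2.65 in K36M under TGF-beta1 and 0.0784 and 0.128 in WT under TGF-beta1, a gap of 5.03-fold. For all 3 markers the group next to the state was WT under Repsox, at a low level.

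For genes in lists the fit across all genes was also used, with edgeR's quasi-likelihood F test. A gene was called when it was higher, or lower, in K36M under Repsox than in each of the 3 other groups, with all 3 Benjamini-Hochberg adjusted p below 0.05. This call was made for 1871 genes on the high side, 11.9% of those tested, and for 1715 on the low side, 10.9%. Against the mean of the 3 other groups, on the log2 scale, 34.4% of tested genes were higher and 28.8% lower, with a median difference of 0.05. A share of a list is read against these shares, as a description only, because the lists were chosen with earlier results of these data known. Whether the 2 libraries of each group were separate cultures or animals is not stated in the labels, so that the spread behind every p-value may be technical. As these were bulk libraries, fewer cells of a type and less RNA per cell cannot be told apart.

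**Figure D2:**
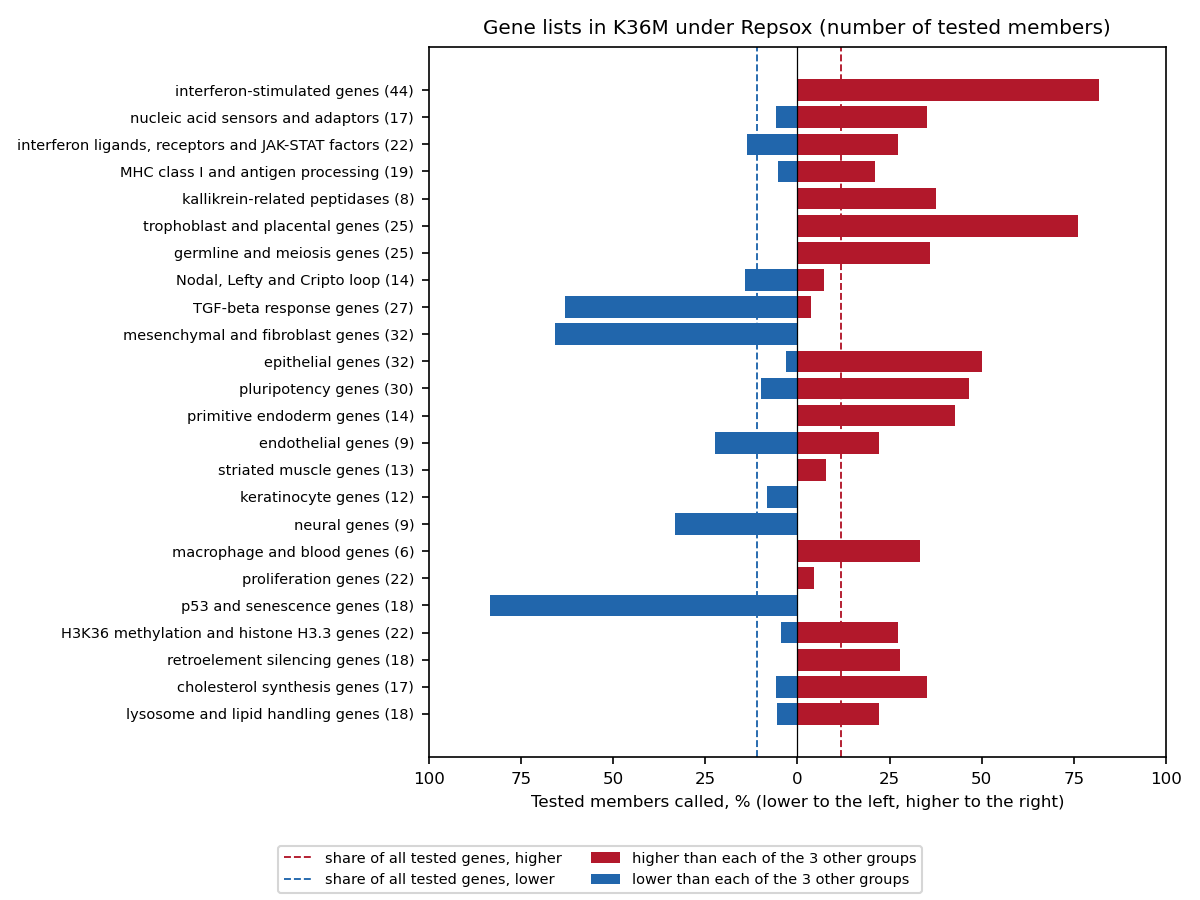
Percentage of the tested members of each of 24 gene lists (number tested in brackets) that were called higher (to the right) or lower (to the left) in K36M under Repsox than in each of the 3 other groups. The dashed lines mark 11.9% and 10.9%, the shares of all tested genes: the interferon-stimulated, trophoblast and epithelial bars reach far to the right of them, and the p53, mesenchymal and TGF-beta response bars far to the left.

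Interferon-stimulated genes were the list with the most state genes. Among the 46 members measured, 27 were state-high and 0 state-low, and of 44 tested 36 were called higher (81.8%) and 0 lower, with 0 lower at an unadjusted p below 0.05 and 0 lower with DESeq2. The median log2 difference from the mean of the other groups was 2.77, and 5 of the 44 were tested only through their level in K36M under Repsox. Summed over the list, the level was 1999 to 2031 CPM in K36M under Repsox, 683 to 696 in WT under Repsox, 729 to 735 in K36M under TGF-beta1 and 333 to 337 in WT under TGF-beta1. Against single groups, 41 of the 44 were higher than in WT under Repsox, 42 than in WT under TGF-beta1 and 38 than in K36M under TGF-beta1. Of all 15789 tested genes, 4551, 6118 and 3731 were higher in these comparisons, in the same order.

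Because the ISRE is a known sequence, it was looked for in the promoters of these genes. The letters GAAANNGAAA were searched on both strands (TTTCNNTTTC when read on the gene's own strand), from 250 bases before to 50 bases after each start in RefSeq promoters of build GRCm38.p6. They were found in 10 of 17 promoters of state-high interferon-stimulated genes with an entry (58.8%), in 17 of 39 of the whole list (43.6%), in 383 of 13539 of tested genes (2.83%) and in 1131 of all 32851 (3.44%). Of the 17 entries, those of Oasl1, Oasl2, Samd9l, Xaf1, Cmpk2, Epsti1 and Lgals3bp held no match. The stretches below show the match in some genes of the interferon lists that held one. They run 5′ to 3′ on the gene's strand, with every match that lies wholly inside the stretch in capitals.
Ifit3: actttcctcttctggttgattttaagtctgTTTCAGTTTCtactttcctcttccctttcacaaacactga
Rsad2: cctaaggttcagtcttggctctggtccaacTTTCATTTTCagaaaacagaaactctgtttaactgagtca
Ddx60: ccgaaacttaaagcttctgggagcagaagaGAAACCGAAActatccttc
Stat2: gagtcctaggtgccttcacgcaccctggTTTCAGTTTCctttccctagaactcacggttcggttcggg
Ifit1: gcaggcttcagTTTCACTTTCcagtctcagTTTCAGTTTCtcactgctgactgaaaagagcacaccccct
Isg15: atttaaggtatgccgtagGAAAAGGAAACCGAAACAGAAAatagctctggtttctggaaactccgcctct
Oas1a: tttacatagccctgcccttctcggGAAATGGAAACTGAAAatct
On GRCm38.p6 these are chr19:34583377-34583446 on the plus strand for Ifit3, chr12:26456533-26456602 on the minus strand for Rsad2, chr8:61928038-61928086 on the plus strand for Ddx60 and chr10:128270248-128270315 on the plus strand for Stat2. Those of Ifit1, Isg15 and Oas1a, which were added after their values were seen, are chr19:34640774-34640843 (plus), chr4:156200845-156200914 (minus) and chr5:120907526-120907569 (minus). The match nearest to the start began 122 bases before it in Ifit3, 120 in Rsad2, 19 in Ddx60, 222 in Stat2, 85 in Ifit1, 66 in Isg15 and 14 in Oas1a. Isg15 and Oas1a held overlapping matches, and Ifit1 a pair of separate ones. Outside the 4 interferon and MHC lists, 14 of 463 promoters of state-high genes held the letters (3.02%), and among state-low genes 15 of 465 (3.23%), both close to the share of all promoters. A match is a description of the sequence and not a measured binding site.

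Among the effectors, Ifit3, whose protein family binds foreign RNA, stood at 9.24 and 9.39 CPM in K36M under Repsox and at 0 to 0.346 in the 6 other libraries, a gap of 26.7-fold. Ifit1, a relative that binds RNA without the host cap, stood at 10.8 and 10.4 against 0.0641 to 1.45 CPM. Ddx60, a helicase that promotes RNA sensing, stood at 17.9 and 16.8 against 0 to 0.959 CPM. In these genes the ISRE letters shown above lie within 122 bases of the start, and their levels outside the K36M Repsox libraries were all under 2 CPM. Oasl2, a relative of the oligoadenylate synthetases, reached a higher level, at 103 and 92.1 CPM in K36M under Repsox, 5.54 and 6.06 in WT under Repsox, 5.91 and 5.22 in K36M under TGF-beta1 and 0.313 and 0.705 in WT under TGF-beta1. Here WT under Repsox and K36M under TGF-beta1 lay close together, and WT under TGF-beta1 lay below both. Oasl1, its neighbour in sequence, stood at 10.2 and 13.7 against 0.0784 to 0.915 CPM. Isg15, a ubiquitin-like modifier, stood at 34.1 and 29.8 against 0.0784 to 4.29 CPM, and Usp18, the protease that removes it from proteins and dampens the interferon receptor, at 35.1 and 38.8 against 0.313 to 3.28 CPM.

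Mx2, a dynamin-like GTPase that blocks virus replication, stood at 15.4 and 11.6 CPM against 0 to 1.11. Trim30a, a TRIM protein induced by interferon, stood at 22.8 and 19.8 CPM against 0.627 to 1.84. Ifi47 and Iigp1 encode interferon-inducible GTPases that act on vacuoles of parasites. Ifi47 stood at 4.75 and 5.4 CPM against 0.0692 to 0.549, and it was the one of the 15 top state-high genes with its highest other level in WT under TGF-beta1. Iigp1 was near the limit of counting, at 1.61 and 1.16 CPM with no count in 5 of the 6 other libraries. The next 3 members were called higher without being state genes. Mov10, an RNA helicase that restrains retroelements, stood at 337 and 318 CPM against 38.6 to 178 (log2 difference from the mean of the other groups 1.58 ± 0.07, largest of the 3 adjusted p = 4.8e-09). Trim25, a ubiquitin ligase of RNA sensing, stood at 304 and 303 against 90.8 to 183 CPM (log2 1.32 ± 0.06, adjusted p = 7.22e-09). Bst2, the tether that holds budding virus at the cell surface, stood at 208 and 199 CPM in K36M under Repsox, 65.1 and 60.8 in WT under Repsox, 148 and 143 in K36M under TGF-beta1 and 7.68 and 7.44 in WT under TGF-beta1 (log2 2.26 ± 0.07, adjusted p = 2.55e-05). The level of Bst2 in K36M under TGF-beta1 lay well above both WT groups.

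Not all members took part. Ifi27l2a, Oas3, Gbp2, Ifit2, Ifi44, Cxcl10, Herc6 and Tor3a were the 8 tested members without a call. Cxcl10, a chemokine that attracts T cells, was highest in K36M under TGF-beta1, at 12.2 and 13.9 CPM, against 1.27 and 1.5 in K36M under Repsox and 0.761 and 0.399 in WT under Repsox. Ifit2, in the same protein family as Ifit1 and Ifit3, stood at 6.43 and 6.81 CPM in K36M under Repsox and 3.6 and 5.19 in WT under Repsox, with an adjusted p of 0.0504 in that comparison.

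**Figure D3:**
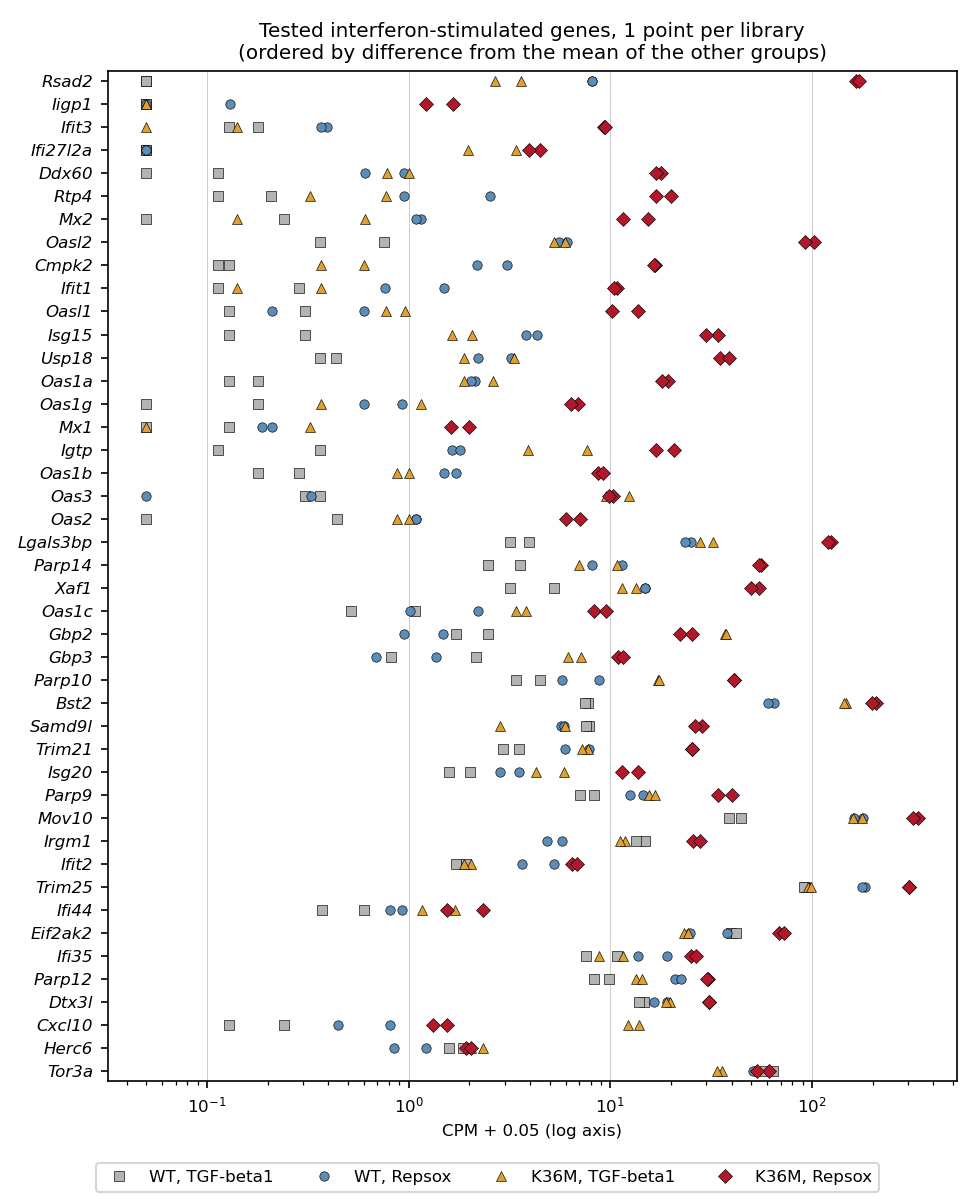
CPM in each of the 8 libraries (log axis, 0.05 CPM added) for the 44 tested interferon-stimulated genes, ordered by the log2 difference from the mean of the other groups. The K36M Repsox diamonds lie to the right of every other symbol for most genes and fall among or to the left of them for Cxcl10, Herc6 and Tor3a at the bottom.

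Ligands, receptors and JAK-STAT factors carry the interferon signal, and of 22 tested 6 were called higher (27.3%) and 3 lower (13.6%), with a median log2 difference of 0.14. Irf7, which amplifies interferon production, stood at 52.9 and 53 CPM in K36M under Repsox, 7.54 and 6.94 in WT under Repsox, 4.0 and 4.76 in K36M under TGF-beta1 and 1.49 and 0.513 in WT under TGF-beta1, a gap of 7.01-fold. Stat2 stood at 87.3 and 85.1 CPM, with K36M under TGF-beta1 next at 28.2 and 35.3 and both WT groups at 21 and 22.3 (Repsox) and 6.74 and 7.31 (TGF-beta1). Both were state-high, as was the interferon gene Ifnk, which was near the limit of counting at 1.54 and 1.91 CPM against 0 to 0.239 and was tested only through the K36M Repsox libraries. Irf9, the DNA-binding partner of Stat2, stood at 35.6 and 40.1 CPM against 10.1 to 24.2 (log2 1.21 ± 0.10, largest adjusted p = 2.56e-05). The receptor chain Ifnar1 had no call, at 83.5 and 78.9 CPM against 58.6 to 79.7, while Ifnar2 was called higher at 40.2 and 37.2 against 10.6 to 29 CPM. The call of Ifnar2 was lost without either WT TGF-beta1 library (adjusted p of 0.155 without the first and 0.0738 without the second), without the first K36M Repsox library (0.200) and with DESeq2 (0.138). The kinase Jak2 (44.8 and 49 against 67 to 100.1 CPM, log2 -0.84 ± 0.09, largest adjusted p = 2e-06) and both chains of the interferon-gamma receptor were called lower, Ifngr2 at 6.29 and 5.73 against 12.5 to 40.0 CPM (log2 -1.89 ± 0.16, largest adjusted p = 1.42e-05).

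Of 17 tested sensors of foreign nucleic acid and their adaptors, 6 were called higher (35.3%) and 1 lower (5.88%). Those that sense RNA in the cytoplasm were among the higher: Ifih1, the sensor Mda5, stood at 39.6 and 38.9 CPM in K36M under Repsox, 10.7 and 9.73 in WT under Repsox, 1.04 and 1.83 in K36M under TGF-beta1 and 1.72 and 2.18 in WT under TGF-beta1. Its 4 TGF-beta1 libraries were at most 2.18 CPM. Dhx58, the helicase Lgp2 that helps Mda5, stood at 8.91 and 11.7 CPM against 0.577 to 3.29, and Zbp1, a sensor of Z-form nucleic acid, at 7.7 and 8.89 against 0.392 to 2.8. The RNA sensor Ddx58 was also called higher, but less firmly. Its call was lost without the first K36M Repsox library and without either K36M TGF-beta1 library. Adar, which edits double-stranded RNA and is itself induced by interferon, stood at 108 and 103 CPM against 59.1 to 73.6 (log2 0.67 ± 0.07, largest adjusted p = 2.74e-06), and the adaptor Myd88 of the Toll-like receptors at 43.9 and 44.8 against 9.59 to 33.4 (log2 1.33 ± 0.10, largest adjusted p = 0.00116). On the other side Tmem173, the adaptor Sting of DNA sensing, was state-low at 4.55 and 3.82 CPM against 9.19 to 18.7. The count of members called lower was 2 without the first WT Repsox library and without the second K36M Repsox library.

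MHC class I genes, which present peptides to T cells, took part in smaller number. Of 19 tested 4 were called higher (21.1%) and 1 lower, with a median log2 difference of 0.77. H2-D1 stood at 202 and 196 CPM in K36M under Repsox, 66.3 and 61 in WT under Repsox, 48.5 and 59.4 in K36M under TGF-beta1 and 42.9 and 48.2 in WT under TGF-beta1, a gap of 2.95-fold with the 3 other groups close together. H2-T23, a non-classical molecule, stood at 18.3 and 15.9 CPM against 2.74 to 7.23. Tapbp, which helps to load peptides, stood at 294 and 262 against 53 to 169 CPM (log2 1.46 ± 0.07, largest adjusted p = 3.97e-07). B2m, the light chain shared by all class I molecules, was highest in WT under TGF-beta1 (136 and 149 CPM) and stood at 86.3 and 95.2 in K36M under Repsox, and the peptide transporter Tap2 was highest in K36M under TGF-beta1 (30.5 and 30.2 CPM against 16.3 and 15.5). The immunoproteasome subunit Psmb10 was state-low, at 3.28 and 2.99 CPM against 8.03 to 11.8.

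Since blood cells respond strongly to interferon, their markers were read beside these genes. Of the 12 macrophage and blood genes, 6 were tested and 2 of them, Csf1r and Gata1, were called higher, with 0 lower at an adjusted or unadjusted p below 0.05 in edgeR and 0 with DESeq2. The count of lower calls was 1 without the first K36M Repsox library. The summed level was 91.1 to 92.7 CPM in K36M under Repsox, 32.2 to 33.4 in WT under Repsox, 29.4 to 30.4 in WT under TGF-beta1 and 37.1 to 44.2 in K36M under TGF-beta1. Csf1r, the receptor of colony stimulating factor 1, which trophoblast is also known to express, stood at 48.7 and 48.7 CPM against 0.321 to 11.9. Gata1, a factor of red cell and megakaryocyte development, stood at 10.8 and 11 CPM against 0 to 1.68. The macrophage marker Cd68 had no call, at 31.3 and 30.1 CPM in K36M under Repsox and 27.7 and 32.5 in K36M under TGF-beta1. Both WT groups were lower for Cd68, at 12.3 to 14.7 CPM. Ptprc, the pan-leukocyte antigen CD45, Emr1, the macrophage antigen F4/80, and the globin genes Hbb-b1 and Hba-a1 had no count in either K36M Repsox library, and Tyrobp was at most 0.0831 CPM there.

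Kallikrein-related peptidases are secreted serine proteases encoded side by side on chromosome 7. Of 8 tested 3 were called higher (37.5%), with 0 lower at an adjusted or unadjusted p in edgeR and 0 with DESeq2, and 4 of 13 in the table were state-high. Of the 3 calls 1, that of Klk4, was tested only through the K36M Repsox libraries. The summed level was 111 to 113 CPM in K36M under Repsox, 36.6 to 38.6 in K36M under TGF-beta1, 7.34 to 10.9 in WT under Repsox and 3.78 to 6.19 in WT under TGF-beta1. Klk6, known as neurosin, stood at 20.02 and 21 CPM in K36M under Repsox, 2.35 and 2.39 in WT under Repsox, 0 and 0.0915 in K36M under TGF-beta1 and 0 and 0.0641 in WT under TGF-beta1, a gap of 8.36-fold. Klk4, a protease of enamel formation, was near the limit of counting at 1.54 and 2.74 CPM. These genes and Klk7 lie within chromosome 7, 51066814 to 51141174 (mm9), where all 3 tested genes were state-high. That span is bounded by the state genes Klk7 and Klk4 themselves, which raises the share inside it. The tested genes Klk8 (51052947 to 51059192), Klk10 and Klk11 lie before its start and were not state-high. Klk10, a neighbour in the family, was instead highest in K36M under TGF-beta1, at 7.75 and 9.43 CPM against 2.81 and 3.07 in K36M under Repsox. Klk8 stood at 20.5 and 21 against 17.9 and 13 in these groups, a difference without a call (edgeR F test, adjusted p = 0.100). Within 1 gene family, then, the top level was under Repsox for some members and under TGF-beta1 for Klk10, all in K36M cells.

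Of the other state-high genes with the widest gaps, Gpr97, an adhesion receptor known from granulocytes, stood at 5.42 and 5.98 CPM against 0 to 0.277. Tnfrsf9, the costimulatory receptor 4-1BB, stood at 23.6 and 23.2 against 0.128 to 2.48 CPM. Pcdh12, a protocadherin of endothelium and of trophoblast glycogen cells, stood at 25.7 and 22.9 against 0 to 2.48 CPM, and Zfp36l3, a placental RNA-binding protein encoded on the X chromosome, at 20.2 and 19 against 0 to 1.38. In each of these the 6 other libraries were under 3 CPM.

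Trophoblast and placental genes also stood out. Of 25 tested, 19 were called higher (76.0%) and 0 lower (0 at an unadjusted p, 0 with DESeq2), 11 were state-high, the median log2 difference was 3.21, and 1 of the 25 was tested only through the K36M Repsox libraries. The summed level was 13209 to 13264 CPM in K36M under Repsox, 6061 to 6484 in WT under Repsox, 3245 to 3317 in K36M under TGF-beta1 and 177 to 204 in WT under TGF-beta1. Plac1, a placental surface protein, stood at 48.7 and 48.1 CPM in K36M under Repsox, 11.6 and 12.2 in WT under Repsox, 0.719 and 0.183 in K36M under TGF-beta1 and 0.0784 and 0.449 in WT under TGF-beta1. Esx1, an X-linked homeobox factor of the placenta, stood at 123 and 115 CPM, with WT under Repsox next at 36.5 and 35.4 and both TGF-beta1 groups at 11.4 CPM or less. Dlx3, a homeobox factor of the placental labyrinth, stood at 59.5 and 57.7 against 0.0784 to 21 CPM. Sfmbt2, an imprinted Polycomb gene of trophoblast, stood at 495 and 499.5 CPM in K36M under Repsox, 140.0 and 161 in WT under Repsox, 101.43 and 117 in K36M under TGF-beta1 and 3.29 and 4.94 in WT under TGF-beta1. In these genes WT under Repsox was the next group, and for Esx1, Dlx3 and Sfmbt2 WT under TGF-beta1 was the lowest.

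Members that were called without passing the 2-fold rule showed the same order of groups or one with K36M under TGF-beta1 next. Rhox6, an X-linked homeobox gene of placenta and germ cells, stood at 167 and 172 CPM in K36M under Repsox, 88.9 and 88.7 in WT under Repsox, 11.5 and 11.5 in K36M under TGF-beta1 and 0.235 and 0.577 in WT under TGF-beta1 (log2 4.43 ± 0.09, largest adjusted p = 2.21e-09). Peg10, an imprinted gene derived from a retrotransposon, carried most of the summed level, at 8286 and 8487 CPM against 4093 and 4647 in WT under Repsox, 1406 and 1407 in K36M under TGF-beta1 and 75.8 and 105 in WT under TGF-beta1 (log2 3.3 ± 0.06, largest adjusted p = 2.74e-09). Gata3, which helps to set trophoblast fate, was state-high at 79.9 and 76 CPM against 1.57 to 32.9. Defining factors of early trophoblast stem cells stayed low: Cdx2 stood at 1.61 and 1.16 CPM and Elf5 at 2.81 and 2.74, against 0 to 1.46 and 0.366 to 2.47 in the 6 other libraries, with no call.

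Of 25 tested germline and meiosis genes 9 were called higher (36%; 5 with DESeq2) and 0 lower (0 at an unadjusted p, 0 with DESeq2), and 5 of the 25 were tested only through the K36M Repsox libraries. Dazl, an RNA-binding protein that germ cells need, stood at 8.84 and 7.4 CPM in K36M under Repsox, 0.692 and 0.559 in WT under Repsox, 0.639 and 1.1 in K36M under TGF-beta1 and 0 and 0 in WT under TGF-beta1. The gap was 6.74-fold, with no count in WT under TGF-beta1. Sohlh2, a factor of early gonocytes and oocytes, stood at 14.2 and 10.5 CPM, with K36M under TGF-beta1 next at 3.44 and 4.03 and all 4 WT libraries at most 0.208. Mov10l1, a helicase of piRNA production, followed the same order, with 8.1 and 7.4, 2.88 and 3.2 and at most 0.798 CPM. Stag3, a meiotic cohesin subunit, stood at 40.2 and 36.4 CPM against 1.86 to 23.2 (log2 2.26 ± 0.13, largest adjusted p = 3.74e-05). Mael and Rhox13 were near the limit of counting, at 1.61 and 1.25 CPM and at 1.07 and 1.41 CPM. Their calls were lost with DESeq2, without either K36M Repsox library, and without the first (Mael) or the second (Rhox13) K36M TGF-beta1 library. The meiotic gene Sycp3 and the germ cell helicase Ddx4 had no call, at 3.08 and 2.08 and at 5.29 and 6.07 CPM in K36M under Repsox and at 1.68 and 2.38 and at 3.04 and 4.3 in K36M under TGF-beta1.

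Pluripotency genes split. Of 30 tested 14 were called higher (46.7%) and 3 lower (10.0%), with a median log2 difference of 2.05. Zfp42, the naive marker Rex1, stood at 44.7 and 44.4 CPM in K36M under Repsox, 9.07 and 6.62 in WT under Repsox, 7.67 and 7.14 in K36M under TGF-beta1 and 0.0784 and 0 in WT under TGF-beta1, a gap of 4.89-fold. Dnmt3l, the cofactor of the de novo DNA methyltransferases, stood at 113 and 119 CPM, with WT under Repsox (28.6 and 24) and K36M under TGF-beta1 (29.6 and 25.5) at like levels and WT under TGF-beta1 at 0.385 or less. Otx2, a factor of the primed epiblast, stood at 6.09 and 6.32 CPM against 0 to 1.56. Dppa5a stood at 160.2 and 146 against 0.392 to 92.3 CPM (log2 3.39 ± 0.12, largest adjusted p = 5.12e-07). Nanog and Esrrb, which hold the naive network, did not set the state apart. Nanog stood at 102 and 111 CPM in K36M under Repsox, 133 and 120.4 in WT under Repsox, 106 and 110.0 in K36M under TGF-beta1 and 12.6 and 2.89 in WT under TGF-beta1, and the groups other than WT under TGF-beta1 lay between 102 and 133 CPM. Esrrb stood at 252 and 251 CPM in K36M and 276 and 219 in WT under Repsox.

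The 3 members called lower were all reprogramming factors, for which reads of the transgene and of the endogenous gene are not separated. Pou5f1 stood at 212 and 212 CPM in K36M under Repsox, 432 and 396 in WT under Repsox, 319 and 323 in K36M under TGF-beta1 and 396 and 372 in WT under TGF-beta1 (log2 -0.85 ± 0.06, largest adjusted p = 3.84e-07). Klf4 stood at 179.5 and 179 CPM against 199 to 628, and Myc at 132 and 142 against 191 to 525. For both, K36M under TGF-beta1 was the nearest group, at 199 and 231 and 191 and 193 CPM. The call of Klf4 was lost without the second K36M Repsox library (adjusted p = 0.0721) and without the second K36M TGF-beta1 library (0.162). Sox2 had no call and stood at 185 and 179 CPM, below WT under either agent but above K36M under TGF-beta1 (104 and 117). The part of these levels in any of the other differences was not tested.

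Epithelial genes, which fibroblasts gain on the way to pluripotency, were called higher for 16 of 32 tested (50.0%) and lower for 1, with a median log2 difference of 1.99. Krt7, a keratin of simple epithelia and trophoblast, stood at 418 and 404 CPM in K36M under Repsox, 109 and 90.5 in WT under Repsox, 149 and 143 in K36M under TGF-beta1 and 0.235 and 0.705 in WT under TGF-beta1, a gap of 2.71-fold. Prss8, a membrane-bound protease that activates epithelial sodium channels, stood at 123 and 119 CPM against 0.157 to 40.2, the transcription factor Elf3 at 185 and 174 against 0.257 to 67.9 and the tight junction protein Tjp3 at 141 and 129.7 against 0.577 to 60.5. In these genes WT under Repsox and K36M under TGF-beta1 held the middle levels and WT under TGF-beta1 was below 1 CPM. Krt8 (972 and 958 against 11.4 to 581 CPM, log2 2.70 ± 0.06, largest adjusted p = 5.71e-09) and Krt18 (1487 and 1421 against 8.7 to 771 CPM, log2 3.16 ± 0.06, largest adjusted p = 2.49e-10), which pair in the filaments of simple epithelia, were also called higher. Cdh1, the E-cadherin of epithelial junctions, passed narrowly: it stood at 1406 and 1377 CPM in K36M under Repsox, 684 and 718 in WT under Repsox, 1135 and 1181 in K36M under TGF-beta1 and 37.4 and 20.6 in WT under TGF-beta1 (largest adjusted p = 0.0428). Its call was lost without either library of either K36M group (0.0717 to 0.159), and the value was 0.503 with DESeq2. Other epithelial surface proteins were highest in K36M under TGF-beta1, with Epcam at 345 and 344 CPM there and 216 and 207 under Repsox, and Cldn6 at 385 and 385 and 191 and 199. The member called lower was Ehf, an epithelial ETS factor, which was state-low at 0.201 and 0.332 CPM against 4.98 to 12.6.

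Primitive endoderm genes were called higher for 6 of 14 tested (42.9%; 2 without the first K36M Repsox library and 3 without the second K36M TGF-beta1 library) and lower for 0 (0 at an unadjusted p, 0 with DESeq2). Hnf4a, a factor of visceral endoderm, was state-high at 7.5 and 8.98 CPM against 0 to 2.16. The defining factors were low: Gata4 stood at 8.3 and 6.98 CPM against 0.128 to 3.6, Sox17 at 4.55 and 2.66 against 0 to 1.36 and Gata6 at 5.89 and 5.07 against 0.94 to 2.8. The other 2 calls were the basement membrane collagens Col4a1 and Col4a2. The calls of Gata4, Gata6 and Sox17 were lost without either of the libraries just named (adjusted p of 0.065 to 0.162), and that of Col4a2 without the first K36M Repsox library (0.118) or the second WT Repsox library (0.104).

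State genes of both directions lay side by side in places. Among tested genes in map order, 162 of 512 state-high genes (31.6%) lay directly beside another state-high gene. Among state-low genes 111 of 530 (20.9%) lay directly beside another state-low gene. No test was made of either share. The limit of 200 kb between neighbours was used to join state genes into runs. The longest run was on chromosome 5, 120984169 to 121357536 (mm9), where 10 of 14 tested genes were state-high: Tpcn1, Rasal1, Dtx1 and the Oas genes Oas2, Oas1c, Oas1b, Oas1f, Oas1h, Oas1g and Oas1a. Oas proteins make the messenger that activates RNase L. Oas1a stood at 19.2 and 18 CPM against 0.0784 to 2.56, and the ISRE letters in its promoter are shown above. The Oas1 copies are close in sequence, so that reads may have been split between them. On chromosome 19, 34658021 to 34724499, all 3 tested genes were state-high, namely Ifit3, I830012O16Rik and Ifit1. Of 10 tested Oas and Oasl genes 3 passed the count filter only through the K36M Repsox libraries, and of 3 tested Ifit genes 2 did. These runs and the ones that follow were picked after the values were seen. Each span runs between the outer ends of its own state genes, which raises the share inside it.

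On chromosome 7, 149620755 to 149856261, 5 of 9 tested genes were state-high: Syt8, Tnnt3, H19, Igf2 and Igf2as. H19 is a maternally expressed imprinted RNA and Igf2, its paternally expressed neighbour, encodes a fetal growth factor. H19 stood at 12196 and 11604 CPM in K36M under Repsox, 3246 and 2928 in WT under Repsox, 2736 and 2523 in K36M under TGF-beta1 and 7.37 and 26.9 in WT under TGF-beta1. Igf2 stood at 3931 and 3936 CPM in K36M under Repsox, 1303 and 1258 in WT under Repsox, 664 and 602 in K36M under TGF-beta1 and 2.82 and 11.9 in WT under TGF-beta1. Both followed one order, with K36M under Repsox highest, WT under Repsox next, then K36M under TGF-beta1 and last WT under TGF-beta1, nearly without. Igf2as overlaps Igf2, and without a stated strand setting their reads cannot be told apart. Another run, on chromosome 8, 44215161 to 44392363, held Zfp42 with Triml1 and Triml2.

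The X chromosome held the largest share of state-high genes, 46 of 566 tested (8.13%), where the other chromosomes ranged from 1.33% (chromosome 3) to 4.22% (chromosome 5). Esx1, Plac1, Zfp36l3 and the Rhox genes are X-linked, and of the Rhox genes 4 of 23 in the table were state-high. The 4 tested Rhox genes were not the same set, as Rhox6 was tested but, at 1.88-fold, was not state-high. Of the 4 tested, 2 (Rhox1 and Rhox13) were tested only through the K36M Repsox libraries, and Rhox6 and Rhox9 were called higher in edgeR and with DESeq2. Rhox9 stood at 92.9 and 88.3 CPM in K36M under Repsox, 32.5 and 25 in WT under Repsox, 4.16 and 1.65 in K36M under TGF-beta1 and 0 and 0.128 in WT under TGF-beta1. Xist, the RNA that coats an inactive X chromosome, stood at 24 and 22.2 CPM in K36M under Repsox, 1.59 and 3.83 in WT under Repsox, 2.8 and 4.58 in K36M under TGF-beta1 and 0.313 and 0.321 in WT under TGF-beta1, so that it was state-high at a modest level. Xist and Rhox9 were singled out after their values were seen, and whether the libraries differed in their sex chromosomes was not tested.

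**Figure D4:**
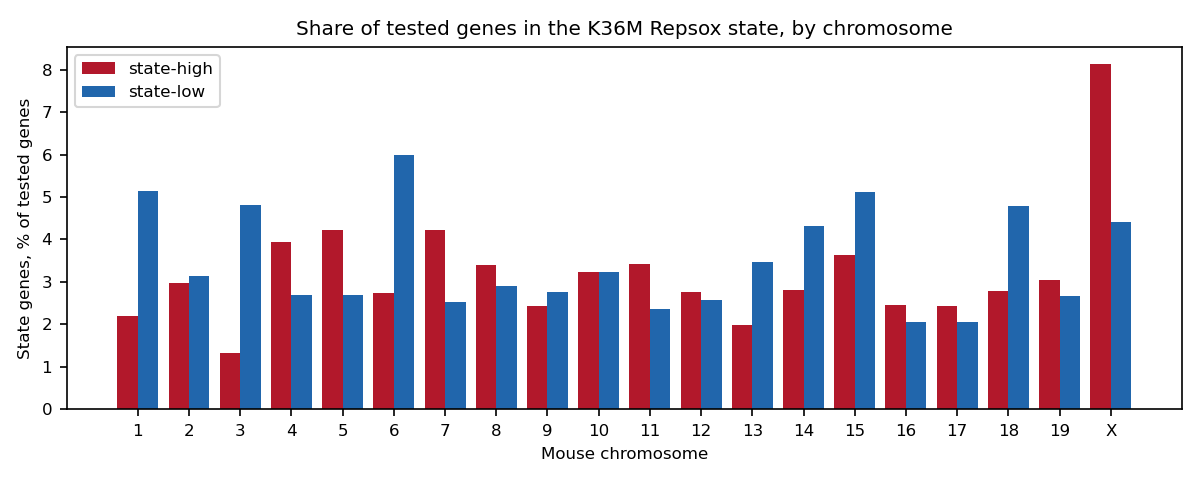
Percentage of the tested genes on each mouse chromosome that were state-high or state-low. The X chromosome carries the tallest state-high bar, at 8.13% of 566 tested genes, and chromosome 6, which holds the Hoxa genes, the tallest state-low bar, at 5.98%.

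The 15 state-low genes with the widest gap had varied roles. Has2 (chromosome 15, 56497182 to 56526094 on mm9), the main hyaluronan synthase of fibroblasts, stood at 0.067 and 0 CPM in K36M under Repsox, 5.68 and 6.06 in WT under Repsox, 7.59 and 9.24 in K36M under TGF-beta1 and 117 and 116 in WT under TGF-beta1. The lowest other library was 84.8-fold above the higher K36M Repsox library, and WT under TGF-beta1 lay far above all. Shisa3, an inhibitor of Wnt and Fgf receptors, stood at 0.201 and 0.249 CPM against 11 to 33.6, and Zfpm2, the Gata cofactor Fog2, at 0.268 and 0.0831 against 4.79 to 20.9. Chst15, which sulphates chondroitin, stood apart in its order: 1.34 and 0.831 CPM in K36M under Repsox, 25.3 and 26.2 in WT under Repsox, 64.4 and 67.3 in K36M under TGF-beta1 and 24.3 and 24.7 in WT under TGF-beta1. Here K36M cells held both the lowest and the highest level, a gap of 18.1-fold between K36M under Repsox and the nearest other library. Igfbp7, a secreted binding protein of growth factors, stood at 1.47 and 2.08 CPM against 25.8 to 239, and the secreted metalloprotease Adamts12 at 0.067 and 0.582 against 6.47 to 54.6. Sox4, a factor linked to the mesenchymal transition, stood at 3.28 and 4.32 against 39.4 to 167 CPM. The rest of the 15 were Pde4b, a cyclic AMP phosphodiesterase (1.07 and 1.08 CPM), Cplx2, a regulator of vesicle fusion (0.335 and 0.748), Rgs8, a regulator of G protein signalling (1.21 and 1.33), the kinase Stk32a (0.87 and 0.332), and Hoxa5, Ehf, Col5a2 and Col1a1, which are given with their families. The first 4 were at most 1.33 CPM there, and their other libraries ran from 5.59 CPM (Cplx2) to 70.2 CPM (Rgs8).

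Mesenchymal and fibroblast genes were called lower for 21 of 32 tested (65.6%) and higher for 0 (0 at an unadjusted p, 0 with DESeq2), 15 were state-low and the median log2 difference was -3.15. The summed level was 2937 to 2944 CPM in K36M under Repsox, 4575 to 4964 in K36M under TGF-beta1, 9413 to 9955 in WT under Repsox and 27317 to 28928 in WT under TGF-beta1. Col1a1 and Col1a2 make type I collagen. Col1a1 stood at 29.6 and 39 CPM in K36M under Repsox, 464 and 359 in WT under Repsox, 313 and 313 in K36M under TGF-beta1 and 2003 and 2313 in WT under TGF-beta1, a gap of 8.03-fold. Col1a2 stood at 26.1 and 29.5 CPM against 176 to 3166. Col5a1 and Col5a2, chains of the collagen that starts type I fibrils, stood at 15.2 and 19.9 and 3.75 and 5.48 CPM against 100.4 to 581 and 45.3 to 1327. In these 4 genes K36M under TGF-beta1 was the nearest group and WT under TGF-beta1 the highest.

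Over all collagen chains, a family picked after its values were seen, 13 of 39 tested were called lower and 3 higher. Tnfrsf11b, the decoy receptor osteoprotegerin, stood at 0 and 0.416 CPM against 3.28 to 141, and Fstl1, a secreted glycoprotein of mesenchyme, at 49.7 and 49.9 against 291 to 1331. Thy1, a surface glycoprotein of fibroblasts that is used to follow reprogramming, had another order. It stood at 15 and 14.4 CPM in K36M under Repsox, 567 and 581 in WT under Repsox, 38.8 and 38.4 in K36M under TGF-beta1 and 23.4 and 27.9 in WT under TGF-beta1 (log2 -2.54 ± 0.09, largest adjusted p = 2.71e-08), so that only WT under Repsox was far from the rest. Col6a2, a collagen VI chain, followed Thy1, at 17.6 and 20.4 CPM in K36M and 347 and 325 in WT under Repsox, with the TGF-beta1 groups between 27.7 and 44.6 (log2 -2.03 ± 0.12, largest adjusted p = 2.14e-06). Pdgfra, the growth factor receptor of fibroblasts, had no call, as it was higher in K36M under Repsox (9.24 and 11.9 CPM) than in either TGF-beta1 group.

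Genes known to respond to TGF-beta were called lower for 17 of 27 tested (63.0%) and higher for 1, Tgm2, with a median log2 difference of -1.78. Cyr61, a matrix-associated early response protein, stood at 63.3 and 63.4 CPM in K36M under Repsox, 233 and 234 in WT under Repsox, 283 and 303 in K36M under TGF-beta1 and 861 and 855 in WT under TGF-beta1, a gap of 3.68-fold. Acta2, the smooth muscle actin of activated fibroblasts, stood at 13 and 12.2 CPM, with WT under Repsox next at 27.1 and 31.8, K36M under TGF-beta1 at 83.4 and 86.7 and WT under TGF-beta1 at 557 and 627. Ctgf, a relative of Cyr61, stood at 22.7 and 30.2 CPM against 41.8 and 48 in WT under Repsox (log2 over all other groups -3.23 ± 0.09, largest adjusted p = 9.37e-07). Not every gene of the list was lowest in K36M under Repsox. Bhlhe40, a transcriptional repressor, stood at 138 and 146 CPM in K36M under Repsox, 81.5 and 76.7 in WT under Repsox, 264 and 289 in K36M under TGF-beta1 and 404 and 415 in WT under TGF-beta1, so that WT under Repsox was the lowest group.

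Smad7, the feedback inhibitor of the receptor, stood at 49.8 and 48 CPM against 68.5 to 305 (log2 -1.44 ± 0.07, largest adjusted p = 5.38e-05). In the loop of Nodal, its inhibitors and coreceptor, 14 genes were tested, 1 was called higher and 2 lower (1 without the first K36M Repsox library, where Lefty1 had an adjusted p of 0.0729). Lefty1, a Nodal inhibitor and target, was state-low at 0.536 and 0.914 CPM in K36M under Repsox, 2.08 and 1.99 in WT under Repsox, 48.2 and 41.1 in K36M under TGF-beta1 and 6.35 and 3.4 in WT under TGF-beta1, with K36M under TGF-beta1 as the far group. The receptor Acvr2b was the one called higher, at 63.9 and 67 CPM against 4.04 to 43.2 (log2 1.79 ± 0.11, largest adjusted p = 0.000219).

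Hox genes, which give fibroblasts their position along the body, were picked as a family after their values were seen. Of 33 tested, 20 were called lower and 0 higher (0 at an unadjusted p, 0 with DESeq2), and 19 of 39 in the table were state-low. On chromosome 15, 102784858 to 102867274 (mm9), all 7 tested Hoxc genes of the run from Hoxc4 to Hoxc11 were state-low, and on chromosome 6, 52052948 to 52190853, 10 of 14 tested genes were, 7 of them Hoxa genes and the others unnamed loci between them, some of which may share reads with the Hox genes. Of the Hoxb genes only 2 of 10 were state-low, and of the Hoxd genes 3 of 9. Hoxa5 stood at 0.201 and 0.249 CPM in K36M under Repsox, 4.22 and 4.07 in WT under Repsox, 4.16 and 5.49 in K36M under TGF-beta1 and 29.9 and 31.8 in WT under TGF-beta1, a gap of 16.3-fold. Hoxc8 stood at 1.67 and 2.99 CPM in K36M under Repsox, 23.1 and 29.9 in WT under Repsox, 10.6 and 11.9 in K36M under TGF-beta1 and 117 and 114 in WT under TGF-beta1. Hoxc6 stood at 2.61 and 2.66 CPM against 14.5 to 62.8, and Hoxa9 at 0 and 0.249 against 2.88 to 11. In all 4 genes WT under TGF-beta1 was the highest group, and WT under Repsox and K36M under TGF-beta1 lay in the middle.

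The p53 and senescence genes, which slow reprogramming by stopping the cell cycle or killing cells, were called lower for 15 of 18 tested (83.3%), with a median log2 difference of -0.89. None was called higher (1 at an unadjusted p, 0 with DESeq2, and 1 without the first WT Repsox library). Cdkn2a and Cdkn2b lie side by side and encode inhibitors of the cell cycle kinases, and Cdkn2a also encodes Arf, which stabilises p53. Cdkn2a stood at 35.7 and 30.6 CPM in K36M under Repsox, 141 and 120.2 in WT under Repsox, 152 and 143 in K36M under TGF-beta1 and 164 and 176 in WT under TGF-beta1, a gap of 3.37-fold with the 3 other groups close together. Cdkn2b stood at 15.3 and 16 CPM in K36M under Repsox, 93.4 and 91.3 in WT under Repsox, 64.8 and 66.1 in K36M under TGF-beta1 and 144 and 149 in WT under TGF-beta1, a gap of 4.06-fold. Cdkn1a, the p53 target p21, stood at 149 and 161 CPM in K36M under Repsox, 469 and 467 in WT under Repsox, 380.1 and 377 in K36M under TGF-beta1 and 1074 and 1032 in WT under TGF-beta1, and the death receptor Fas at 1.81 and 2.66 CPM against 7.43 to 14.9. These 4 were state-low.

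Further p53 targets were called lower by smaller amounts. Ccng1, a cyclin that feeds back on p53, stood at 240.3 and 247 CPM against 463 to 1113 (log2 -1.49 ± 0.06, largest adjusted p = 3.57e-10). Plk2, a kinase of the stress response, stood at 93.9 and 95.2 against 179 to 289 (log2 -1.30 ± 0.07, largest adjusted p = 6.21e-10), and Zmat3, an RNA-binding protein, at 240.4 and 241 against 398 to 423 (log2 -0.83 ± 0.06, largest adjusted p = 2.28e-09). The members without a call were Sesn1, Bbc3 and Pmaip1. Proliferation genes did not set the state apart: 1 of 22 tested was called higher (0 with DESeq2, and 0 without the first library of either WT group or the second K36M Repsox library) and 0 lower (0 at an unadjusted p, 0 with DESeq2). Mki67, a marker of cycling cells, stood at 758 and 787 CPM in K36M under Repsox, below K36M under TGF-beta1 (920.0 and 1008) and above WT under Repsox (476 and 536) and under TGF-beta1 (100.69 and 97.5).

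Genes of H3K36 methylation and histone H3.3 held no state gene. H3f3a and H3f3b encode histone H3.3. Whether either carried the K36M change is not given, and counts per gene do not separate mutant from normal transcripts. H3f3a stood at 58.3 and 58.3 CPM in K36M under Repsox, 104 and 108 in WT under Repsox, 92.2 and 88.5 in K36M under TGF-beta1 and 86.7 and 89.5 in WT under TGF-beta1 (log2 -0.75 ± 0.07, largest adjusted p = 2.17e-06), and H3f3b had no call, at 271 and 278 CPM against 198 to 346. Of 22 tested genes of H3K36 methylation and H3.3, 6 were called higher (27.3%) and 1 lower, and 1 was tested only through the K36M Repsox libraries. Kdm4b, a demethylase, stood at 102 and 99.7 CPM against 31 to 62.5 (log2 0.99 ± 0.09, largest adjusted p = 6.95e-06). Phf19, a Polycomb subunit that binds the methylated lysine, stood at 22.5 and 25.6 against 0.862 to 14.2 CPM (log2 2.23 ± 0.15, largest adjusted p = 0.000151).

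Retroelement silencing genes were called higher for 5 of 18 (27.8%) and lower for 0 (0 at an unadjusted p, 0 with DESeq2). Dnmt1, which maintains DNA methylation, stood at 609 and 581 CPM against 93.9 to 399 (log2 1.31 ± 0.06, largest adjusted p = 6.14e-08), and the H3.3 chaperone Daxx at 112 and 102 against 24.5 to 77.8 (log2 1.18 ± 0.07, largest adjusted p = 2.16e-05). Cholesterol synthesis genes were called higher for 6 of 17 (35.3%) and lower for 1 (0 without the first library of either K36M group), with Mvd, an enzyme of the pathway, at 60.7 and 58.1 CPM against 10.8 to 35 (log2 1.39 ± 0.09, largest adjusted p = 7.01e-06). Lysosome and lipid handling genes were called higher for 4 of 18 (22.2%) and lower for 1, Lipa, the acid lipase, at 15.3 and 15.6 CPM against 24.6 to 54.9 (log2 -1.23 ± 0.10, largest adjusted p = 4.14e-05).

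Markers of other cell types that the cultures could hold gave mixed or low values. Of 9 tested endothelial genes 2 were called higher and 2 lower, and their summed level in K36M under Repsox (137 CPM) was between that of WT under Repsox (111 to 118) and the TGF-beta1 groups (211 to 239). Pecam1, an adhesion molecule of endothelium and also of pluripotent cells, was state-high at 44.1 and 39.1 CPM against 0.257 to 19.104, Cdh5, the cadherin of endothelial junctions, at 6.63 and 5.48 against 0.0915 to 1.68, while the angiopoietin receptor Tek was state-low at 8.24 and 10.7 against 26.7 to 108. Kdr, which defines endothelium, was at most 0.416 CPM in K36M under Repsox. Of 13 tested striated muscle genes 1 was called higher, Myl4, a light chain of the atrial and fetal heart, at 84.5 and 76 CPM against 0.898 to 31.8, and 0 lower (0 at an unadjusted p, 0 with DESeq2). The list's summed level was 178 to 183 CPM, close to the 176 to 177 of K36M under TGF-beta1, and Myod1 had no count in K36M under Repsox.

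Of 12 tested keratinocyte genes 0 were called higher (0 at an unadjusted p, 0 with DESeq2) and 1 lower, Perp, at 131 and 126 CPM against 150.1 to 518. That count was 2 without the second K36M Repsox library and without the first K36M TGF-beta1 library. The list's sum was 157 to 171 CPM against 173 to 208 in WT under Repsox, 444 to 453 in K36M under TGF-beta1 and 496 to 544 in WT under TGF-beta1, and Krt5 was at most 1.41 CPM. Of 9 tested neural genes 0 were called higher (0 at an unadjusted p, 0 with DESeq2) and 3 lower. Nes, an intermediate filament of progenitors, was state-low at 46.9 and 50.9 CPM against 124 to 1054, and the adhesion molecule Ncam1 at 5.56 and 4.49 against 15.1 to 520.4. Their sum was 113 to 120 CPM, below all other groups (214 to 1705). The part of any of these cell types in the state was not tested.

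The state genes were also read in comparisons that contain no K36M Repsox library. The rule sets a bound on these libraries from one side, and both comparisons share the WT TGF-beta1 libraries, so the values are a description. Between K36M and WT under TGF-beta1, where 36.4% of all tested genes were higher and 33.9% lower, 357 of 512 state-high genes were higher in K36M (69.7%) and 13 lower, with a median log2 difference of 2.55. Of the 380 that pass the count filter without the K36M Repsox libraries, 305 were higher (80.3%) and 13 lower. Of 531 state-low genes 459 were lower in K36M (86.4%) and 13 higher, with a median of -1.84. Between Repsox and TGF-beta1 in WT, where 33.4% of tested genes were higher and 29.0% lower, 365 state-high genes were higher under Repsox (71.3%) and 5 lower, with a median of 2.81. Of the state-low genes 411 were lower under Repsox (77.4%) and 31 higher, at a median of -1.30. Over all tested genes the medians were 0.05 and 0.07.

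By list, the same comparisons gave unequal values. Of 44 tested interferon-stimulated genes, 29 were higher and 4 lower in K36M than in WT under TGF-beta1, and 27 were higher and 5 lower under Repsox than under TGF-beta1 in WT. Of 25 trophoblast genes 19 were higher in the first comparison and 23 in the second. Of 32 mesenchymal genes the counts were 26 lower and 2 higher, and 17 lower and 12 higher. Of 18 p53 and senescence genes they were 11 lower and 5 higher, and 11 lower and 3 higher.

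**Figure D5:**
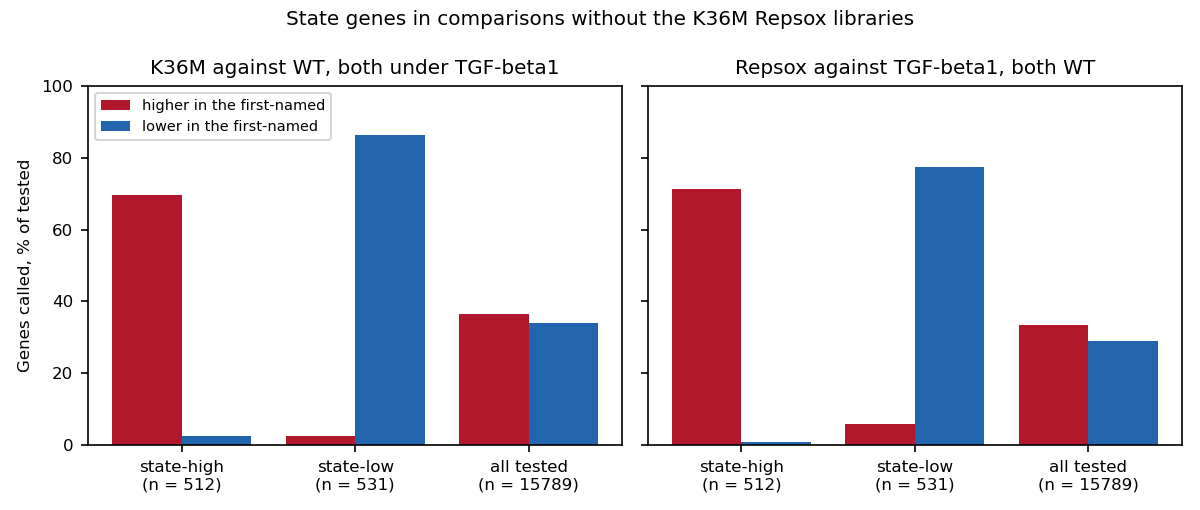
Percentage of state-high, state-low and all tested genes that were higher or lower in the 2 comparisons made without the K36M Repsox libraries, which share the WT TGF-beta1 libraries. State-high genes are mostly higher (69.7% and 71.3%) and state-low genes mostly lower (86.4% and 77.4%), beside 36.4% and 33.4% higher and 33.9% and 29.0% lower among all tested genes.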

How the data were processed

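RNA-seq counts per gene were analysed for 8 libraries of day 8 cells. The deposited values were whole-number counts in 1 table of 26930 genes, 3195 of them at 0 in every library. The submitters' processing notes list the tools HTSeq 0.11.2, STAR 2.5.0 and edgeR and the build mm9. Annotation and strand setting are not given in the sources used here, so reads of overlapping, antisense or near-identical genes are uncertain. Totals ran from 10928302 to 15594217 counts, and their size limits the precision of low values. Chi-square per degree of freedom within groups was 2.70 to 9.09, so no pair of libraries was a copy. CPM is a count over its library's total, scaled to 1000000 counts.

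State genes were taken by the rule in the opening, on that CPM. The fit used edgeR 4.0.16 in R 4.3.3, with filterByExpr (15789 genes), TMM factors of 0.894 to 1.057 and a quasi-likelihood F test on 4 group means, with 4 residual degrees of freedom and a common biological coefficient of variation of 0.0702. A call against each of the 3 other groups needed a Benjamini-Hochberg adjusted p below 0.05 in all 3 contrasts and 1 direction. Errors of log2 differences are standard errors. The fit was tested on simulated counts.

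The members and the 24 lists were chosen with earlier results of these data known. Of 510 list genes 19 were not analysed here. Named genes are the 15 high and 15 low state genes with the widest gap and at least 4 CPM on the higher side (leaving out predicted, unnamed, mitochondrial, small RNA and histone cluster genes), from each list up to 5 state genes and 3 further members with the smallest p, the 3 markers and 6 genes followed throughout. A few of the genes it takes are not reported here. Named outside this rule, after their values were seen, were genes of the runs and families, Isg15, Ifit1, Oas1a, Igf2, H19, Xist, the defining markers of cell types and list members given to show an exception.

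Coordinates are from GENCODE vM1 (mm9), in which 26763 identifiers were found. Promoters are from RefSeq (GRCm38.p6), where 356 of 512 state-high, 340 of 530 state-low and 34 of 48 interferon-stimulated genes had an entry. Alternatives were DESeq2 1.42.0, its size factors in edgeR, no count filter, a replicate block, TMM-scaled CPM, folds of 1.5 and 3, and leaving out each library.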

Additional observations from a re-analysis of the deposited data

Results flagged for a closer look

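Of the genes followed throughout that were not chosen by their K36M Repsox values, 6 differed between genotypes in their response to the agent. The measure was the interaction term of the edgeR fit (the log2 difference TGF-beta1 minus Repsox in K36M, minus that in WT). The share of all tested genes called by this term is not given here, so such a difference is not shown to be particular to these 6 genes. The largest value among them was that of Thy1, at 5.646 ± 0.140 (standard error, adjusted p = 8.3e-18): Thy1 was far higher under Repsox than under TGF-beta1 in WT and lower in K36M. For Cdh1 the value was 4.126 ± 0.174 (adjusted p = 1.64e-14) and for Nanog 3.898 ± 0.320 (adjusted p = 9.27e-10), both with a far lower level under TGF-beta1 in WT and little or no fall in K36M. The 2 WT TGF-beta1 libraries differ widely for Nanog (12.6 and 2.89 CPM). Pou5f1 gave 0.4863 ± 0.099 (adjusted p = 0.000262), H3f3a 0.6764 ± 0.117 (adjusted p = 4.43e-05) and H3f3b 0.4187 ± 0.100 (adjusted p = 0.00134). For the state genes Rsad2 and Hand1, which were chosen by those values, the same term was 3.898 ± 1.34 and 2.357 ± 0.662, given as a description with no test. The value of Rsad2 rests on WT TGF-beta1 libraries that held no count of it. The third marker, Klk7, went the other way. Its level under Repsox was above that under TGF-beta1 by a log2 of 8.50 in K36M and 4.85 in WT. Klk7 was near the limit of counting in both TGF-beta1 groups.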

How the results depend on the processing

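The number of state genes depends on the fold asked for and on both K36M Repsox libraries. With 1.5-fold it was 1246 high and 1037 low, with 3-fold 391 and 252, and with each library left out in turn 746 to 1329 high and 599 to 909 low. With TMM-scaled CPM it was 717 and 579. Calls against the mean of the 3 other groups ran from 4480 to 5786 higher and from 3732 to 4670 lower with a library left out, and calls against each group from 1386 to 1931 and from 1377 to 1760. With DESeq2 the calls against each group were 1471 and 1578. The replicate numbers do not pair the libraries (correlations of deviations from the group means from -0.02015 to 0.03155), and with a replicate block the calls against each group were 1884 and 1732. In K36M against WT under TGF-beta1, state-high genes higher in K36M numbered 315 to 358 with a library left out, and state-low genes lower numbered 435 to 463. For the 154 genes named by the rule, 1831 of 1848 alternative values kept their direction and their side of the threshold, 15 fell short of it, 2 passed it, and 0 reversed. The genes whose side changed were Abca1, B2m, Ikbke, Klk10, Krt17, Lyz2, Mael, Nanog, Pdgfra, Rhox13, Sox2 and Tubb3. These values and genes are those of the contrast with the mean of the 3 other groups. The call against each of the 3 groups, which asks for more, was also lost with DESeq2 for Cdh1, Nrcam, Taf7l and Mov10l1. The cause of these changes was not tested. List counts that moved by over 1.5 times are given beside the lists; others were the sensors called lower (2 with no count filter and with the replicate block), the keratinocyte genes called lower (2 with no count filter) and the p53 genes called higher (1 with the replicate block). Genes near 0 in the other libraries are limited by depth.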

Other observations

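Runs of neighbouring state-high genes were also seen outside the groups described above, and they were picked after the values were seen. On chromosome 13, 33057182 to 33587867 (mm9), 4 of 8 tested genes were state-high, namely Serpinb6b, Serpinb9c, Serpinb9f and Serpinb9g, which encode inhibitors of serine proteases. Over the Serpinb family 8 of 13 tested members were called higher than in each of the 3 other groups and 2 lower, beside 11.9% and 10.9% of all tested genes. These copies are close in sequence, so that reads may have been split between them. On chromosome 7, 148448605 to 148548919, Irf7 was state-high together with Sct, the hormone secretin, and Eps8l2, an actin regulator. In promoters, the AP-1 letters TGANTCA, searched on both strands, were found in 9.48% of 485 state-high, 6.24% of 465 state-low and 5.54% of 13539 tested entries, and in 7.81% of all, as a description of these windows.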
